A study of Homo sapiens with 20 samples.

Results

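The changes described here are those between 1 h and 3 h of actinomycin D in wild-type (WT) human pancreatic progenitors (PPs). The genes were those with a mean level of 5 CPM or more, where CPM is the share of a library taken by a gene, over the 2 libraries at 1 h and the 2 libraries at 3 h, which kept 10421 of the 60623 genes listed in each library. Just outside this limit lay SUSD2 at 4.9952 CPM and RAD50 at 4.9982 CPM, and just inside it lay UNC5B-AS1 at 5.0003 CPM and MRPS17 at 5.0022 CPM. The 2 libraries at 2 h entered no test and are shown as intermediates. All cells came from MEL1, an established human embryonic stem cell line carrying a GFP reporter at the insulin locus, differentiated stepwise to PPs. One genotype was unedited (WT), and the other (A5-KO) carried a CRISPR-Cpf1 knockout of ALKBH5 in its first exon, taken from picked and expanded colonies, so that a genotype effect cannot be told apart from the history of a clone. Each genotype was sampled untreated (0 h) and after 1, 2 and 3 h of actinomycin D at 1 μg/ml, in pairs of libraries, which gave 16 of the 20 libraries of the series. The study describes its replicates as biological, and the labels do not say how the libraries of a group were separated, so p-values measure only the spread between these libraries, which may be technical.

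Actinomycin D intercalates into DNA and stops elongation by RNA polymerases, so that RNA levels afterwards follow decay rather than synthesis. Transcripts of growth factor response genes, transcription factors and feedback inhibitors decay fastest, often through AU-rich elements in their 3′ untranslated regions, whereas those of ribosomal proteins and metabolic enzymes persist. N6-methyladenosine (m6A), a base mark that ALKBH5 removes from mRNA, is another determinant of mRNA stability. CPM expresses each gene as a share of the reads of its library, so a gene that decays more slowly than the average transcript gains share while its amount falls. "Higher" and "lower" therefore refer to share throughout, and because whole cultures were sampled, fewer cells of a type and less RNA per cell cannot be told apart.

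ALKBH5, the edited gene, was examined first in every library. In WT it stood at 149 and 172 CPM at 0 h, 133 and 125 CPM at 1 h, 107 and 83.4 CPM at 2 h, and 48.3 and 33.7 CPM at 3 h. In A5-KO it stood at 19.1 and 18.8 CPM at 0 h, 11.1 and 10.1 CPM at 1 h, 8.38 and 9.31 CPM at 2 h, and 8.98 and 7.43 CPM at 3 h. Every WT library was above every A5-KO library, but the libraries labelled WT 3 h lay well below the other WT libraries.

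The same placement appeared on the genes that separated the untreated genotypes. This set includes ALKBH5 itself, the other genes called lower below and some of those called higher. For 22 genes over 2-fold higher in WT than in A5-KO at 0 h (a gap of over 1.0 on the log2 scale), the median difference from the WT 0 h mean was -0.01 and -0.16 in the WT 1 h libraries, -0.25 and -0.47 at 2 h, and -0.83 in both libraries labelled WT 3 h. In A5-KO libraries of any time it lay between -1.8 and -1.45. For 27 genes over 2-fold higher in A5-KO, the WT medians were 0.07 and 0.05 in the libraries of 1 h, 0.18 and 0.35 in those of 2 h, and 0.77 and 0.89 in those of 3 h, against 1.44 to 1.88 in A5-KO. Of the 22 genes, 19 were lower at 3 h than at 1 h in WT without overlap, and of the 27 genes, 25 were higher, with 0 in the opposite direction in either set. Among all tested genes, 11.8% were lower and 25.3% higher without overlap. The filter on mean CPM used the same WT 1 h and 3 h libraries. A gene could thus enter through its level at 1 time alone, as MYH14 did (11.9 and 9.34 CPM at 1 h, 1.07 and 0.442 CPM at 3 h). Part of this contrast may be set by the filter. On genes that separate the genotypes, the libraries labelled WT 3 h thus lay between the WT 0 h and the A5-KO libraries. Whether they hold RNA from A5-KO cells was not tested, and every result that rests on them is set beside the genotype difference at 0 h. The other contrast in these libraries was their distance from untreated cells. Over all tested genes, the root mean square log2 distance from the WT 0 h mean was 0.521 and 0.482 after 1 h, 0.672 and 0.472 after 2 h, and 0.451 and 0.391 in the libraries labelled WT 3 h. The A5-KO distances were 0.524 and 0.594 after 1 h, 0.768 and 0.78 after 2 h, and 0.873 and 0.947 after 3 h. Both libraries labelled WT 3 h were closer to untreated WT than both WT 1 h libraries, although WT 2 h library 1 was further away. The untreated A5-KO libraries lay at 0.304 and 0.272 on this measure, which is taken from WT for both genotypes. The 2 WT libraries at 2 h also differed from each other more (0.369) than those at 1 h (0.17) or 3 h (0.279).

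**Figure D1:**
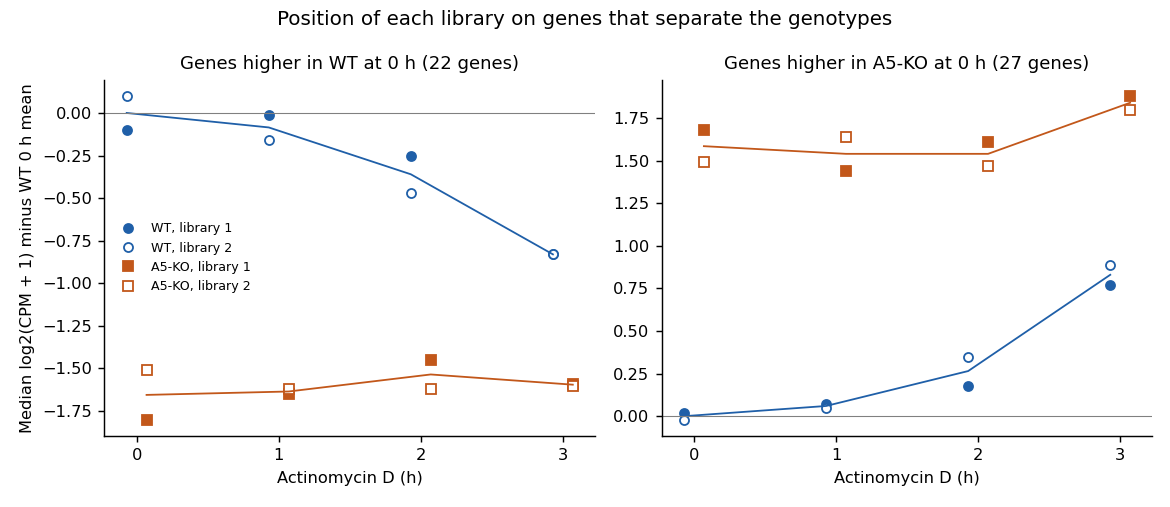
Median difference from the WT 0 h mean, in log2(CPM + 1), against hours of actinomycin D, over 22 genes higher in WT (left) and 27 genes higher in A5-KO (right) at 0 h. Each point is 1 library (filled, library 1; open, library 2), blue circles are WT, orange squares are A5-KO, and lines join the means; the libraries labelled WT 3 h lie at -0.83 and at 0.77 to 0.89, between the genotypes.

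Between 1 h and 3 h, 18 genes rose (0.173% of those tested) and 8 genes fell (0.0768%) in the libraries labelled WT (limma on log2(CPM + 1), Benjamini-Hochberg adjusted p under 0.05 and a change over 1.5-fold). After quantile normalization the counts were 7 and 6, by edgeR 8 and 7, and by DESeq2 67 and 16. All 8 genes that fell were already lower in A5-KO than in WT at 0 h, and 8 of the 18 that rose were already higher, without overlap and past 1.5-fold in each case. Such gaps were found for only 1.4% (lower in A5-KO, 146 genes) and 1.51% (higher, 157 genes) of all tested genes. Leaving out these 303 genes and adjusting again over the other 10118, limma called 0 genes in either direction, with 106 higher and 3 lower at an unadjusted p under 0.05 past 1.5-fold. The 10 genes called higher that had no such gap kept their change and unadjusted p. Their calls were lost only because the adjustment depends on the other genes tested. The calls also depended on single libraries. Without WT 1 h library 1, limma called 0 genes higher and 1 lower, without WT 1 h library 2 it called 1 and 3, without WT 3 h library 1 it called 329 and 55, and without WT 3 h library 2 it called 143 and 45. A fit that also held the 2 h libraries called 0 and 0, with 116 higher and 19 lower at an unadjusted p under 0.05. In the 4 libraries, 2634 genes were higher (25.3%) and 1227 lower (11.8%) at 3 h without overlap, and 154 were past 1.5-fold higher (1.48%) and 22 past 1.5-fold lower (0.211%), whatever their p. The median change over all genes was 0.03 on the log2 scale, and -0.007 after median-of-ratios scaling.

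**Figure D2:**
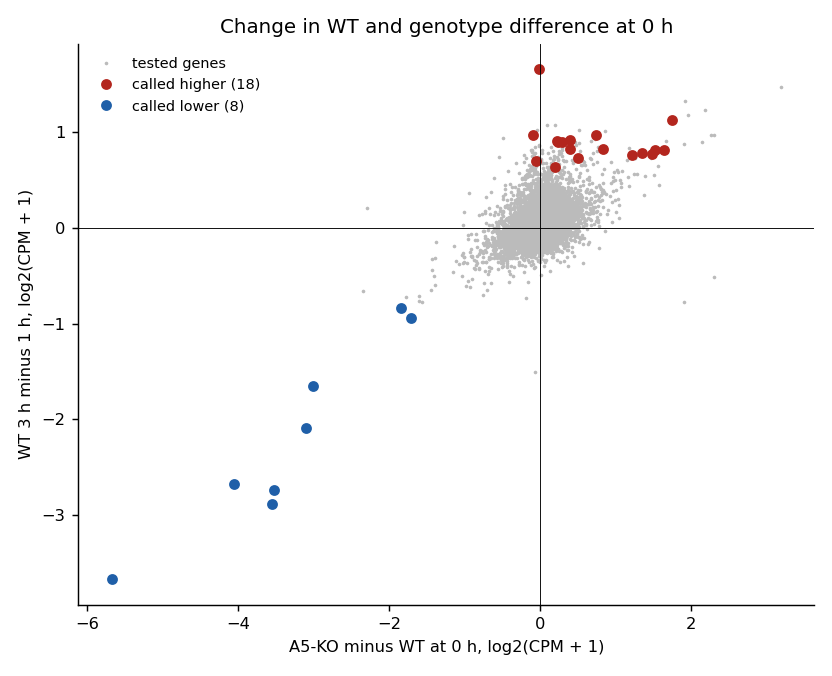
Change in WT from 1 h to 3 h (vertical) against the A5-KO minus WT difference at 0 h (horizontal), both in log2(CPM + 1), for 10421 genes (grey), with the 18 genes called higher in red and the 8 called lower in blue. All 8 lower genes lie on the left, and of the 18 higher genes, 8 pass the 1.5-fold limit on the right while SLC30A1 has the largest change of the 18 at a horizontal value near 0.

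TNFSF9, the ligand of the T-cell costimulatory receptor 4-1BB, was at 42.5 and 70.4 CPM at 0 h, 41.9 and 29.3 CPM at 1 h, 16.9 and 5.94 CPM at 2 h, and 2.09 and 1.58 CPM at 3 h. It fell by 3.68 (SE 0.206, n = 2 against 2) on the log2(CPM + 1) scale (limma adjusted p = 0.00084), the largest change of all those called. In A5-KO it was listed at 0 in all libraries of 1 h and 3 h, where 3 reads would have been 0.0852 to 0.0949 CPM, and at 0.155 and 0.0293 CPM at 0 h. Because A5-KO was near 0 before any treatment, any fall of TNFSF9 in the libraries labelled WT goes towards the A5-KO level.

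ALKBH5, whose values are given above, fell by 1.65 (SE 0.15, limma adjusted p = 0.00687). The mean at 3 h was 0.318 of the mean at 1 h, while from 0 h to 1 h the WT libraries had changed by -0.31. These 2 comparisons share the 1 h libraries. In A5-KO, ALKBH5 changed by -0.34 from 1 h to 3 h, and the change differed between genotypes by 1.32 (limma interaction, adjusted p = 0.000974). SLFN11, a helicase-like protein recruited to stressed replication forks, was at 25 and 27.1 CPM at 1 h, 19 and 17.5 CPM at 2 h and 14.3 and 11.8 CPM at 3 h, and fell by 0.95 (SE 0.137, limma adjusted p = 0.0469). In A5-KO it was at 7.13 and 6.89 CPM at 1 h and 3.55 and 4.11 CPM at 3 h, a change of -0.73. Its change was not called different between genotypes (difference 0.21, SE 0.218, limma adjusted p = 0.523). GP2, a zymogen granule glycoprotein used as a surface marker of pancreatic progenitors, was at 47.3 and 55.7 CPM at 0 h, 56.8 and 56.3 CPM at 1 h, 54.2 and 37.5 CPM at 2 h, and 33.2 and 29.2 CPM at 3 h. It fell by 0.84 (SE 0.101, limma adjusted p = 0.0225). A5-KO held 14.7 and 13.3 CPM of GP2 at 1 h and 14.6 and 19.6 CPM at 3 h.

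The other 4 genes that fell averaged under 20 CPM at 1 h and are named after their values were seen. PCDHGB5, a clustered protocadherin adhesion molecule, went from 20.4 and 12.7 CPM at 1 h to 1.64 and 1.04 CPM at 3 h (log2 change -2.88), with 2177 of its 4887 exon bases shared with overlapping genes of the cluster. MYH14, a nonmuscle myosin heavy chain, went from 11.9 and 9.34 CPM to 1.07 and 0.442 CPM (-2.74). SRRM3, a splicing regulator of microexons, went from 21.4 and 17.6 CPM to 2.66 and 1.8 CPM (-2.67). CD70, the ligand of CD27, went from 12.5 and 11.4 CPM to 2.45 and 1.67 CPM (-2.09). These 4 genes were at 0.569 CPM or less in every A5-KO library of any time. In all 8 genes both libraries labelled WT 3 h lay between the WT 1 h and the A5-KO 1 h libraries, a placement found in 9.64% of all tested genes. The 8 genes were chosen by their fall in WT. TNFSF9 and the 4 genes above were also under 1 CPM in A5-KO at 1 h, where nearly any fall gives this placement. The contrast with all tested genes was thus largely set by the choice. In all 8, WT 2 h library 1 was above library 2, and both were above the libraries at 3 h.

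**Figure D3:**
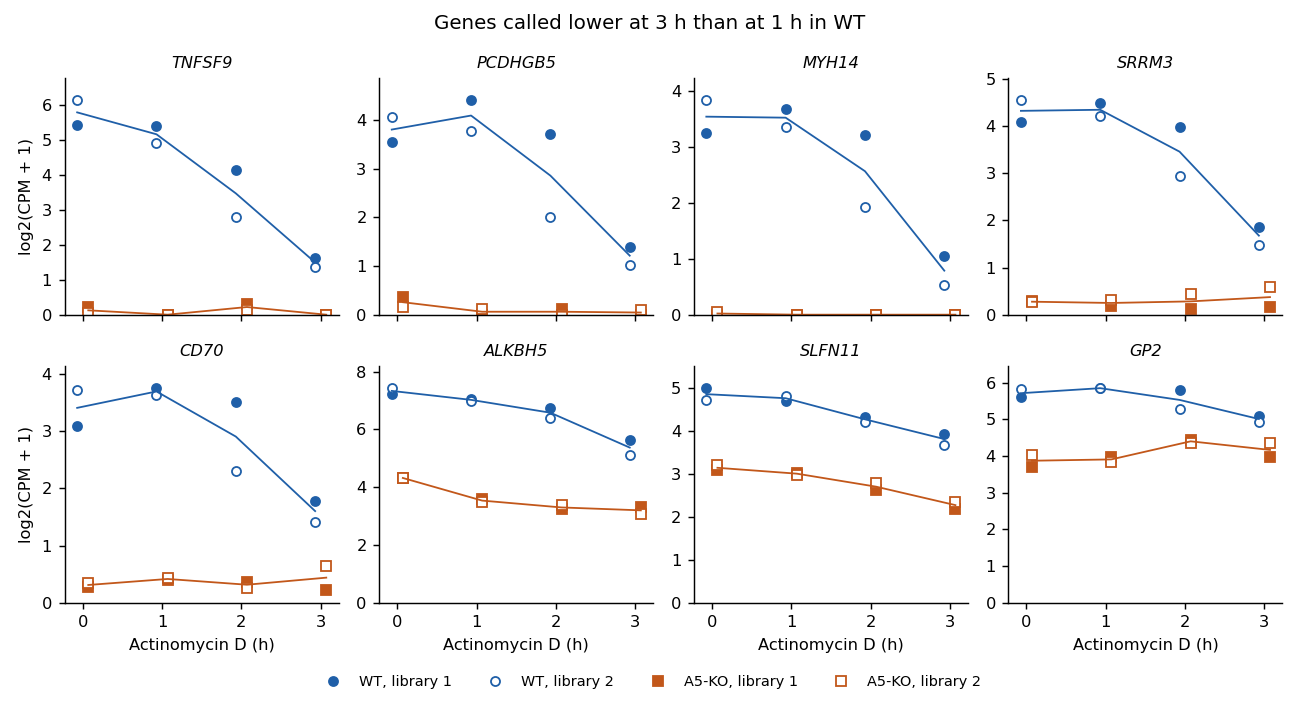
Level in log2(CPM + 1) against hours of actinomycin D for the 8 genes called lower at 3 h than at 1 h in WT. Each point is 1 library (filled for library 1, open for library 2), blue circles are WT, orange squares are A5-KO, and lines join the means. In each panel the WT line descends after 1 h, and the A5-KO line lies below WT already at 0 h. For SLFN11 both lines descend from 1 h to 3 h, with changes of -0.95 in WT and -0.73 in A5-KO.

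The genes that rose were divided into 2 sets of 9 by their course before 1 h. Of the 18, 9 were lower at 1 h than at 0 h in WT without overlap and past 1.5-fold, a course found in 1581 of all tested genes (15.2%). These were SLC30A1, CALB1, SPRY1, CLDN7, CEACAM5, CLDN4, MUC13, PRSS8 and SRSF6. The comparison of 0 h with 1 h shares the 1 h libraries with that of 1 h with 3 h, so a low value at 1 h enters both.

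SLC30A1, the zinc exporter ZnT1, had the largest rise. It was at 225 and 161 CPM at 0 h, 7.69 and 11.2 CPM at 1 h, 7.29 and 17.3 CPM at 2 h, and 27.4 and 36.3 CPM at 3 h. It rose by 1.66 on the log2(CPM + 1) scale (SE 0.197, limma adjusted p = 0.0215), and its mean CPM was 3.37-fold higher at 3 h than at 1 h, moving from 4.9% to 16.5% of the 0 h mean. In A5-KO it went from 14.3 and 11.8 CPM at 1 h to 9.12 and 7.75 CPM at 3 h, and the genotypes differed by -2.23 in their change (limma interaction, adjusted p = 0.000129). SLC30A1 did not separate the genotypes at 0 h, where A5-KO held 223 and 159 CPM.

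SPRY1, a Sprouty protein that inhibits receptor tyrosine kinase signalling, was at 159 and 118 CPM at 0 h, 10.8 and 12.5 CPM at 1 h, 5.01 and 12.8 CPM at 2 h, and 24.3 and 23.3 CPM at 3 h. It rose by 0.98 (SE 0.13, limma adjusted p = 0.0369), from 8.4% to 17.2% of its 0 h mean. In A5-KO it went from 5.21% of the 0 h mean at 1 h to 2.74% at 3 h. SRSF6, a serine and arginine-rich splicing factor, was at 236 and 214 CPM at 0 h, 88.5 and 96.5 CPM at 1 h, 95.1 and 111 CPM at 2 h, and 136 and 154 CPM at 3 h, a rise of 0.64 (SE 0.0906, limma adjusted p = 0.043). These 3 genes remained below both 0 h libraries at 3 h, the only ones of the 18 to do so.

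The other 6 of this set encode calcium-binding and epithelial surface proteins. CALB1, the calcium buffer calbindin, was at 26.2 and 23.3 CPM at 0 h, 12.8 and 16.1 CPM at 1 h, 17.6 and 24.5 CPM at 2 h, and 29.9 and 36 CPM at 3 h, a rise of 1.13 (SE 0.149, limma adjusted p = 0.0345). CALB1 is also the one gene of the 9 that was past 1.5-fold higher in untreated A5-KO, with 96.1 and 76 CPM. CLDN4, a tight junction claudin, was at 41.8 and 34.8 CPM at 0 h, 18 and 19.7 CPM at 1 h, 19.1 and 31 CPM at 2 h, and 32.8 and 39.7 CPM at 3 h, a rise of 0.90. CLDN7, another claudin, rose by 0.92 from 12.2 and 10.6 CPM to 21.3 and 23.5 CPM. CEACAM5, a cell adhesion glycoprotein of gut epithelium, rose by 0.91 from 18.4 and 18.8 CPM to 34.7 and 36.9 CPM. MUC13, a transmembrane mucin, rose by 0.90 from 44.7 and 45.7 CPM to 80 and 90.6 CPM. PRSS8, the membrane serine protease prostasin, lies outside the naming rule and rose by 0.70 from 21.7 and 23.1 CPM to 38 and 36.2 CPM. CLDN4, CLDN7, CEACAM5, MUC13 and PRSS8 were lower at 1 h than at 0 h in WT but not in A5-KO, where for example CLDN4 went from 46.3 and 47.6 CPM at 0 h to 55.7 and 61.5 CPM at 1 h and 35.2 and 31.8 CPM at 3 h. At 1 h these 5 genes were higher in A5-KO than in WT by 1.26 to 1.58 on the log2 scale, whereas at 0 h they had differed by -0.06 to 0.39.

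The other 9 genes that rose were not lower at 1 h by that measure, and 7 of them were higher in A5-KO than in WT at 0 h. LCP1, the actin-bundling protein plastin 2, was at 97.9 and 86.7 CPM at 0 h, 96.2 and 95.3 CPM at 1 h, 107 and 130 CPM at 2 h, and 169 and 170 CPM at 3 h, a rise of 0.82 (SE 0.0717, limma adjusted p = 0.00687). ANXA13, an annexin of intestinal and kidney epithelium, was at 112 and 107 CPM at 0 h, 108 and 114 CPM at 1 h, 117 and 153 CPM at 2 h, and 187 and 195 CPM at 3 h, a rise of 0.78. LGALS3, the carbohydrate-binding protein galectin-3, was at 79.7 and 81 CPM at 1 h, 85.2 and 115 CPM at 2 h, and 139 and 138 CPM at 3 h, also a rise of 0.78. In A5-KO these 3 genes stayed between 218 and 374 CPM at every time, so that the libraries labelled WT 3 h moved towards a steady A5-KO level.

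NTS, the precursor of the gut peptide neurotensin, was at 19 and 17.8 CPM at 1 h, 17.2 and 15.2 CPM at 2 h, and 30.8 and 33.2 CPM at 3 h, a rise of 0.76, and A5-KO held 41.2 to 53.9 CPM throughout. GNRH2, a gonadotropin-releasing hormone, rose by 0.82 from 19.4 and 18.7 CPM to 36.1 and 32.7 CPM, TSPAN8, a tetraspanin, by 0.82 from 35.7 and 34.6 CPM to 56.1 and 70.8 CPM, and CTSE, the aspartic protease cathepsin E, by 0.97 from 15.6 and 14.4 CPM to 27.3 and 33.7 CPM. All 3 were higher in A5-KO at 0 h. CEACAM6, an adhesion glycoprotein closely related to CEACAM5, rose by 0.82 from 82.1 and 86.2 CPM to 144 and 156 CPM. GPX3, the secreted glutathione peroxidase, which lies outside the naming rule, rose by 0.73 from 30.8 and 28.2 CPM to 48.3 and 51.2 CPM. CEACAM6 and GPX3 were not past the 1.5-fold limit between genotypes at 0 h. Reads could be split between CEACAM5 and CEACAM6, whose sequences are alike, so their values are uncertain.

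Over the 18 genes, both libraries labelled WT 3 h were above both WT 0 h libraries in 13 and below them in 3. In 15 of the 18 they lay between the WT 1 h and A5-KO 1 h libraries (9.64% of all tested genes), and the exceptions were SLC30A1, SPRY1 and SRSF6. The 18 genes were chosen by their rise in WT, so part of this contrast was set by the choice. Both WT 2 h libraries lay between the 1 h and the 3 h libraries in 11 of the 18. The A5-KO mean was highest at 2 h in 9 of the 18. A further 5 genes had an adjusted p under 0.05 with a rise under the 1.5-fold limit, namely the membrane protein STOM, E-cadherin (CDH1), alpha-fetoprotein (AFP) and the RNA-binding proteins SRSF2 and SFPQ.

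**Figure D4:**
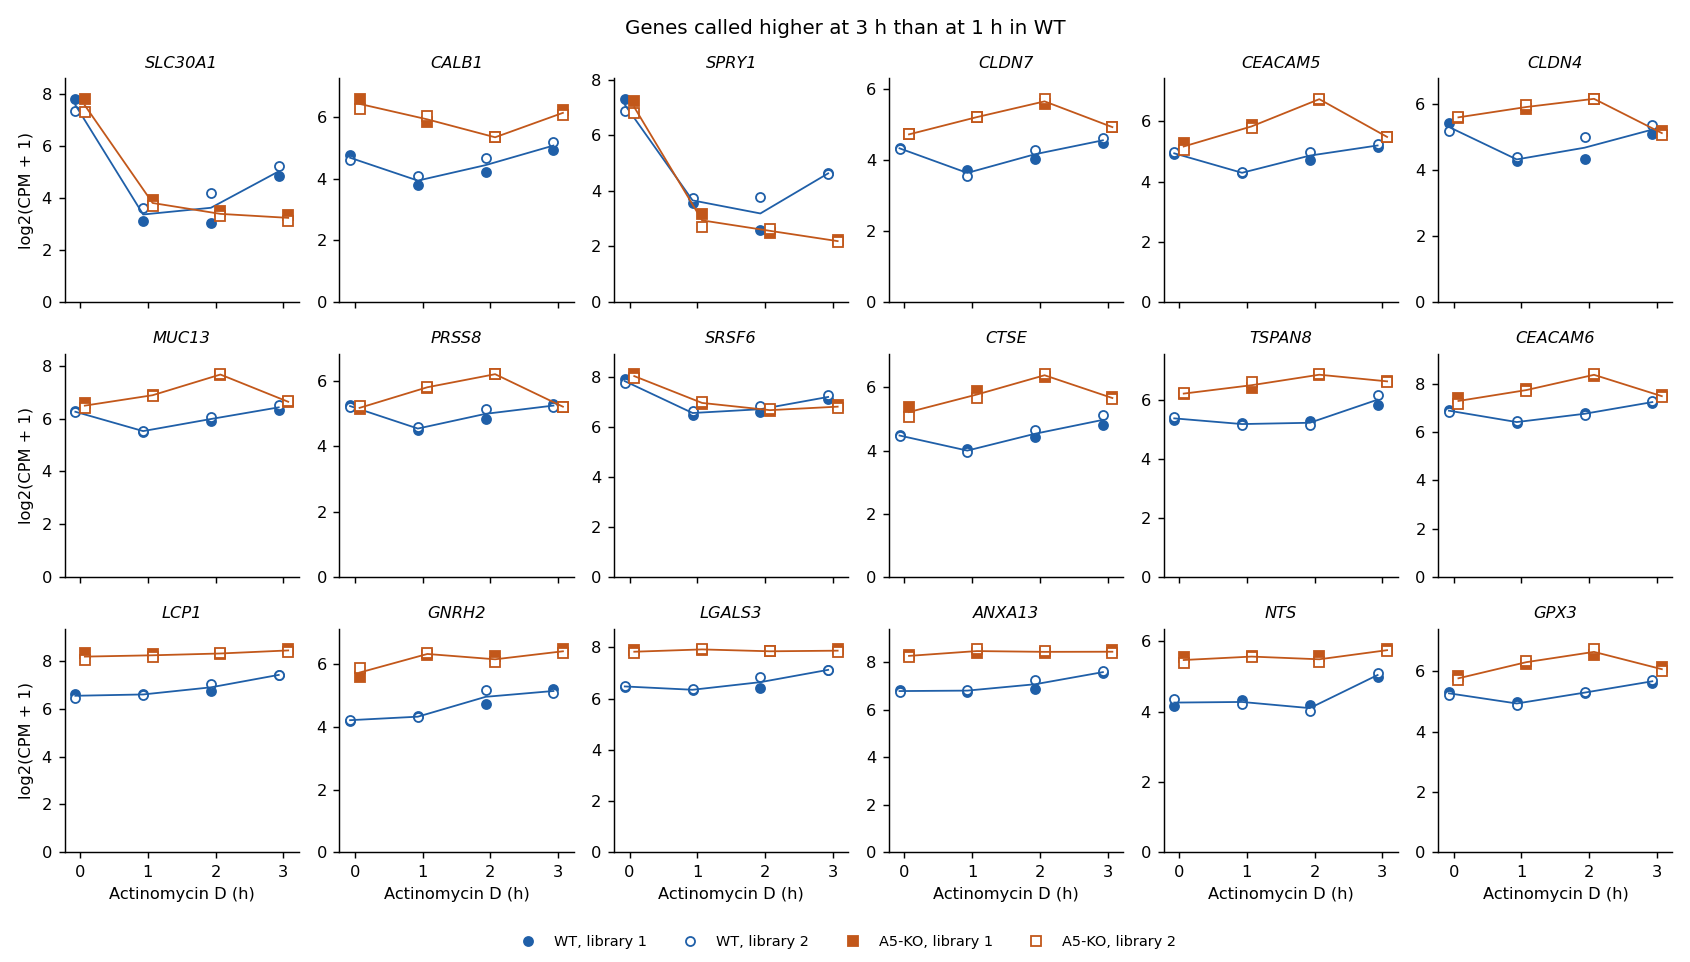
Level in log2(CPM + 1) against hours of actinomycin D for the 18 genes called higher at 3 h than at 1 h in WT, the 9 that were lower at 1 h than at 0 h first. Each point is 1 library (filled, library 1; open, library 2), blue circles are WT, orange squares are A5-KO, and lines join the means; the WT lines of SLC30A1, SPRY1 and SRSF6 turn upwards after 1 h or 2 h while those of LCP1, ANXA13 and LGALS3 approach a higher and steady A5-KO line.

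The wider set of 154 genes past 1.5-fold higher, called or not, is given as a description, since it was chosen by the change itself. Of these, 148 were protein-coding, and 103 were lower at 1 h than at 0 h first. The 103 genes had a median level of 23.6% of the WT 0 h mean at 1 h, 18.2% and 28.2% in WT 2 h libraries 1 and 2, and 41.8% at 3 h. In A5-KO the same genes had medians of 27.2%, 15.1% and 14.3% at 1, 2 and 3 h. In 89 of the 103, both libraries labelled WT 3 h were still below both WT 0 h libraries, 7 were higher in A5-KO at 0 h, and in 93 (90.3%) the change was called lower in A5-KO than in WT, against 72.4% of all genes lower at 1 h than at 0 h and 19.0% of all tested genes. The 103 genes were chosen by the WT change, which is part of that difference. The other 51 genes differed in their relation to genotype: 32 were higher in A5-KO at 0 h (62.7%, against 1.51% of all genes), and in 45 (88.2%, against 9.64%) the libraries labelled WT 3 h lay between the WT 1 h and A5-KO 1 h libraries.

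AU-rich elements were counted because they mark many short-lived mRNAs. The nonamer TTATTTATT was sought in the 3′ untranslated region of the canonical transcript of each gene, where that transcript was coding. It occurred in 19 of the 99 such genes among the 103 (19.2%). The shares were 15.9% of the 1552 among all genes that were lower at 1 h than at 0 h, and 9.9% of 10010 among all tested genes. The pentamer ATTTA, which the nonamer contains, occurred 2.99, 2.56 and 2.33 times per kb in these sets. The share in the 103 is thus set against genes with the same early course, from which it differed less than from all genes, and no test was made. The nonamer occurred in 3 of 49 among the other 51 genes (6.12%) and in 1 of the 18 genes called higher (5.56%), of which 16.7% held 5 or more pentamers, against 36.0% of all tested genes. The windows of 30 bases on hg38 shown here hold a nonamer in capitals, 5′ to 3′ on the strand of the gene. They come from SLC30A1, which has the largest rise, and from 3 of the 154 genes chosen after their values were seen, AEN, a nuclease induced by p53, FOSL2, an AP-1 transcription factor, and NCOA7, a nuclear receptor coactivator. AEN holds 2 nonamers, which overlap, and only the first is in capitals.
SLC30A1 (chr1:211573139-211573168, minus strand): tagcagagaaTTATTTATTtctttacaatg
AEN (chr15:88631182-88631211, plus strand): tgcctgacctTTATTTATTtattaacagca
FOSL2 (chr2:28416355-28416384, plus strand): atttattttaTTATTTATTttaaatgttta
NCOA7 (chr6:125929255-125929284, plus strand): aaaaaaacttTTATTTATTatttgtagtat
AEN was at 134 and 102 CPM at 0 h, 11.8 and 12.9 CPM at 1 h, 7.77 and 20 CPM at 2 h, and 19.1 and 35.6 CPM at 3 h (log2 change 1.02, SE 0.247, limma adjusted p = 0.201). FOSL2 was at 43.3 and 36.7 CPM at 0 h, 5.98 and 5.27 CPM at 1 h, 2.34 and 10.2 CPM at 2 h, and 9.73 and 11.6 CPM at 3 h (0.82, SE 0.174, limma adjusted p = 0.161). NCOA7 was at 34.5 and 30.8 CPM at 0 h, 11.1 and 12.2 CPM at 1 h, 11.4 and 11.9 CPM at 2 h, and 19.8 and 22.6 CPM at 3 h (0.81, SE 0.135, limma adjusted p = 0.0696). All 3 missed the adjusted threshold, although the 1 h and 3 h libraries did not overlap in any of them. In A5-KO their changes were lower than in WT by 1.36 to 2.00, each called by the limma interaction.

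Of the 22 genes past 1.5-fold lower, 18 were lower in A5-KO at 0 h and 1 was higher. The 3 without a gap were MIR3648-1, GADD45B and LSS, named after their values were seen. MIR3648-1, a microRNA gene with near-identical copies, so that its counts are uncertain, was at 1.84 and 1.24 CPM at 0 h, 41.9 and 31.1 CPM at 1 h, 69.2 and 34.5 CPM at 2 h, and 16 and 9.04 CPM at 3 h (log2 change -1.51, SE 0.242, limma adjusted p = 0.0615). In A5-KO it was at 1.08 and 1.79 CPM at 0 h, 39.7 and 42.7 CPM at 1 h, 112 and 98.7 CPM at 2 h, and 111 and 100 CPM at 3 h. Both genotypes thus went from under 2 CPM to over 30 CPM within 1 h, after which the A5-KO level went up and stayed there while the WT level at 3 h was below its own level at 1 h. GADD45B, a stress-inducible growth arrest protein, was at 11.2 and 10.4 CPM at 1 h and 6.24 and 5.97 CPM at 3 h, and LSS, lanosterol synthase of the cholesterol pathway, was at 39.4 and 24.2 CPM at 1 h and 19.2 and 19.7 CPM at 3 h.

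The transcription factors of pancreatic progenitors, which hold the identity of these cells, were followed one by one. Of 23 listed, 17 passed the filter. Limma called 0 of them between 1 h and 3 h in WT, as did edgeR and DESeq2, with 3 higher and 1 lower at an unadjusted p under 0.05. The median change was 0.22 (all genes, 0.03), and the groups did not overlap in 9 higher (52.9%, against 25.3% of all genes) and 2 lower (11.8%, as in all genes). PDX1, the homeobox factor required for the pancreas to form, was at 200 and 156 CPM at 0 h, 43.7 and 50.5 CPM at 1 h, 23.6 and 71.1 CPM at 2 h, and 49.1 and 66.4 CPM at 3 h (log2 change 0.28, SE 0.146, limma adjusted p = 0.721). The WT 3 h libraries overlapped with those at 1 h, and the 2 libraries at 2 h lay on either side of both. In A5-KO, PDX1 went from 53.3 and 51.4 CPM at 1 h to 18.9 and 21.9 CPM at 2 h and 12.7 and 11.5 CPM at 3 h, and the genotypes differed by -2.30 in their change (limma interaction, adjusted p = 1.57e-05).

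NKX6-1, which marks progenitors able to form beta cells, had 3 h libraries just above those of 1 h. It was at 367 and 289 CPM at 0 h, 96.2 and 112 CPM at 1 h, 62.2 and 131 CPM at 2 h, and 118 and 119 CPM at 3 h in WT, against 97.6 and 97.2 CPM at 1 h and 30.7 and 25 CPM at 3 h in A5-KO (difference -1.97). SOX9, a progenitor and duct factor, was at 322 and 237 CPM at 0 h, 59.5 and 71.2 CPM at 1 h, 45.7 and 114 CPM at 2 h, and 80.1 and 82.4 CPM at 3 h (difference -2.16). FOXA2, a pioneer factor of endoderm, was at 98.2 and 75.7 CPM at 0 h, 16.7 and 16 CPM at 1 h, 8.57 and 25 CPM at 2 h, and 25.6 and 23.9 CPM at 3 h (log2 change 0.57, limma adjusted p = 0.151, difference -1.74). For these 4 factors A5-KO minus WT was -0.40 to -0.08 on the log2 scale at 0 h and -0.09 to 0.15 at 1 h. WT 2 h library 1 was near the A5-KO 2 h libraries for PDX1 (23.6 against 18.9 and 21.9 CPM) and FOXA2 (8.57 against 7.27 and 7.01 CPM). It was further above them for NKX6-1 (62.2 against 49.1 and 44.6 CPM) and SOX9 (45.7 against 28 and 26.8 CPM). The gap between genotypes after 1 h thus rests mostly on WT 2 h library 2 and the libraries labelled WT 3 h.

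HES1, the effector of Notch signalling, was at 5.69 and 9.21 CPM at 1 h and 10.8 and 14.4 CPM at 3 h (log2 change 0.70), HHEX, a homeobox factor of foregut endoderm, at 6.41 and 6.6 CPM and 10.3 and 11.8 CPM (0.68), and FOXA1, a relative of FOXA2, at 5.06 and 6.08 CPM and 9.4 and 10.9 CPM (0.77). These 3 were past 1.5-fold higher without a call. GATA6, a zinc finger factor needed for pancreas formation, changed by 0.29, ONECUT2 by 0.40, HNF4A by 0.21, MNX1 by 0.11, NR5A2 by 0.09, TCF7L2 by 0.04 and GATA4 by 0.02, none of them called and the last 2 of either sign depending on the scaling. PROX1 was at 14.2 and 16.7 CPM at 1 h and 14.6 and 22.5 CPM at 3 h, and RBPJ, the DNA-binding partner of Notch, at 80.1 and 81.1 CPM and 75.6 and 78.5 CPM. ONECUT1, which acts upstream of PDX1, differed from the rest in having its lowest WT level at 3 h without a call, with 18.7 and 17.1 CPM at 0 h, 13.9 and 13.5 CPM at 1 h, 10.4 and 12.6 CPM at 2 h, and 8.5 and 8.91 CPM at 3 h (log2 change -0.60, limma adjusted p = 0.192). Untreated A5-KO held 7.23 and 5.33 CPM of ONECUT1.

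As a share of the 0 h mean, the median of the 17 factors in WT was 37.6% after 1 h, 39.4% after 2 h (29.4% and 46.9% in libraries 1 and 2) and 49.4% after 3 h. In A5-KO it was 39.5% at 1 h, 22.6% at 2 h and 14.6% at 3 h. WT 2 h library 1 was below both 1 h libraries in 16 of the 17 and library 2 above both in 14. Over all tested genes these shares were 54.2% and 52.2%, and over the 1581 genes lower at 1 h than at 0 h they were 82.4% and 68.0%. In 13 of the 17 both held, so that the 2 h libraries lay on opposite sides of the 1 h libraries. Both held in 2642 of the 10421 tested genes and in 859 of the 1581. In 15 of the 17, A5-KO was lower at 3 h than at 1 h without overlap. That was so in 4964 of the 10421 tested genes and in 1375 of the 1581, so it is not particular to the factors. In all 17 both libraries labelled WT 3 h were above both A5-KO 3 h libraries, for which no share over all genes is given. The change was called lower in A5-KO than in WT in 14 of the 17 factors (82.4%), against 1980 of all tested genes (19.0%), and higher in 0, against 148 (1.42%). Among the 1581 genes that were lower at 1 h than at 0 h it was called lower in 72.4%. The median difference over all genes was -0.16, and 0.01 after median-of-ratios scaling, under which 398 genes were called higher and 1381 lower (521 and 856 after quantile normalization). The median over the 17 factors was -1.74, and -1.58 after that scaling.

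**Figure D5:**
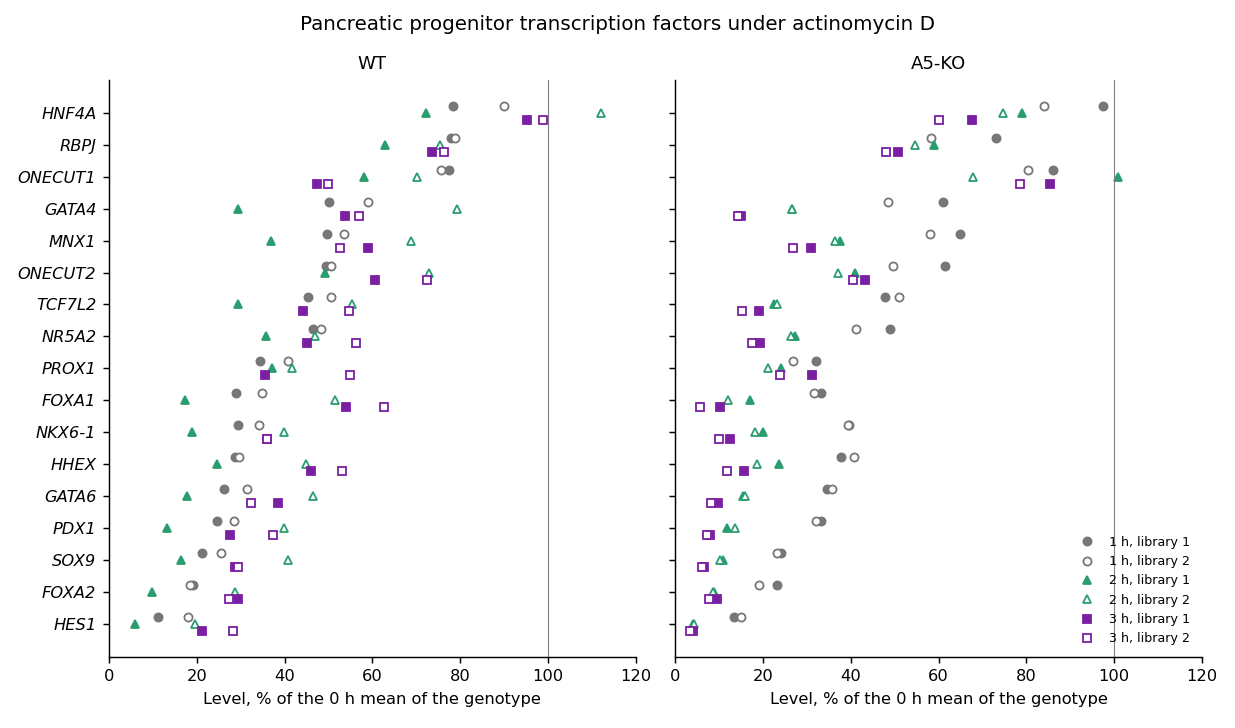
Level at 1 h (grey circles), 2 h (green triangles) and 3 h (purple squares) of actinomycin D as a percentage of the 0 h mean of the same genotype, for 17 transcription factors in WT (left) and A5-KO (right). Filled and open symbols are libraries 1 and 2; in WT the median over factors is 49.4% at 3 h and 37.6% at 1 h, whereas in A5-KO it is 14.6% at 3 h and 39.5% at 1 h.

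Other short-lived groups had small positive medians in WT. Of 28 immediate early and short-lived regulators, limma called 0 and edgeR 0, DESeq2 called 2 higher and 1 lower, and 4 higher and 1 lower had an unadjusted p under 0.05. Their median change was 0.29, 17 were higher without overlap (60.7%, against 25.3% of all genes), and in A5-KO the median was -1.11. KLF5, a Krüppel-like factor of epithelial progenitors, was at 93.2 and 109 CPM at 1 h and 136 and 161 CPM at 3 h (log2 change 0.55, limma adjusted p = 0.137), and in A5-KO at 135 and 124 CPM and 34.6 and 27.1 CPM. MCL1, a short-lived survival protein of the BCL2 family, was at 68.6 and 80.8 CPM and 89.5 and 122 CPM (limma adjusted p = 0.319). JUND, an AP-1 subunit, was at 103 and 120 CPM and 178 and 122 CPM (limma adjusted p = 0.547).

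Of 30 signalling feedback regulators, only SPRY1 was called by limma, edgeR called 0, DESeq2 called 2 higher, and the median was 0.18 in WT and -1.17 in A5-KO. DUSP5, a phosphatase of nuclear ERK, was at 967 and 656 CPM at 0 h, 229 and 280 CPM at 1 h, 86.1 and 298 CPM at 2 h, and 210 and 266 CPM at 3 h in WT, without a call (limma adjusted p = 0.945). In A5-KO it went from 262 and 284 CPM at 1 h to 18.6 and 15 CPM at 3 h, so that the change differed by -3.85 (limma interaction, adjusted p = 3.2e-07). The change was called lower in A5-KO in 23 of the 30 regulators (76.7%) and in 21 of the 28 immediate early regulators (75.0%), near the 72.4% of all genes that were lower at 1 h than at 0 h and above the 19.0% of all tested genes.

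Of 16 SR proteins and CLK kinases, 13 were higher without overlap (81.2%, against 25.3% of all genes), and the median change was 0.37. Only SRSF6 was called by limma and by DESeq2, and edgeR called 0. SRSF3, which like other SR proteins binds exonic enhancers, was at 506 and 471 CPM at 0 h, 248 and 269 CPM at 1 h, 234 and 291 CPM at 2 h and 333 and 346 CPM at 3 h (log2 change 0.39, limma adjusted p = 0.108). SRSF5 was at 195 and 214 CPM at 1 h and 230 and 308 CPM at 3 h (limma adjusted p = 0.409). In A5-KO the median of the list was -0.15, and the change was called lower there in 8 of the 16 (50.0%, against 19.0% of all tested genes). Of the 16, 9 were lower at 1 h than at 0 h in WT, and among all genes with that course the share was 72.4%.

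The 231 ZNF-named zinc finger genes had a median of 0.15, with 98 higher (42.4%, against 25.3% of all genes) and 11 lower (4.76%, against 11.8%) without overlap, 0 called by limma and edgeR, 2 higher by DESeq2 and 11 higher at an unadjusted p under 0.05. In A5-KO their median was -0.5, and the change was called lower in 111 (48.1%, against 19.0%). Of the 231, 129 were lower at 1 h than at 0 h in WT, and among all genes with that course the share was 72.4%. The 25 p53 target genes had a median of 0.1 (1 higher by DESeq2 and at an unadjusted p under 0.05, 0 by limma and edgeR), the 13 plasma protein genes a median of 0.08 with the same counts, and the 16 integrated stress and unfolded protein response genes a median of 0.15 (0 by all 3 tools, 1 higher at an unadjusted p under 0.05). Of the 20 m6A writers, erasers and readers, ALKBH5 alone was called by limma, edgeR and DESeq2, and the median was 0.09. The 20 extracellular matrix and mesenchyme genes had a median of -0.07 (1 higher by DESeq2 and at an unadjusted p under 0.05, 0 by limma and edgeR). The change was called higher in A5-KO in 5 of them and lower in 0, against 1.42% and 19.0% of all tested genes. FN1, fibronectin, was at 4260 and 4170 CPM at 1 h and 4390 and 3940 CPM at 3 h in WT.

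In the remaining lists limma, edgeR and DESeq2 called 0 genes, and 0 had an unadjusted p under 0.05 past 1.5-fold except 1 higher of the 18 small nucleolar RNA host genes. The long-lived groups changed little by median, with -0.03 for 79 cytosolic ribosomal proteins, 0.03 for 75 nuclear-encoded respiratory chain subunits, -0.02 for 19 glycolysis genes and -0.08 for 13 mitochondrially encoded mRNAs. RPLP0, a protein of the ribosomal stalk, was at 5210 and 5080 CPM at 1 h and 5260 and 4920 CPM at 3 h, and the glycolytic enzyme GAPDH at 2260 and 2240 CPM and 2150 and 2340 CPM. Median changes were 0.05 for 54 mRNA decay machinery genes, 0.08 for 29 RNA polymerase II and elongation factors, 0.02 for 30 mitosis genes, 0.13 for 12 heat shock genes, 0.19 for 8 circadian clock genes and 0.28 for 7 replication-dependent histones. They were -0.0 for the 18 small nucleolar RNA host genes, -0.06 for 7 nuclear long non-coding RNAs and -0.24 for 2 endocrine genes (INSM1 and SCG2), and the single RNA polymerase III transcript, RN7SL1, was at 6.61 and 40.4 CPM at 1 h and 3.94 and 28 CPM at 3 h.

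Markers of other cell types moved in the same libraries. The summed CPM of 6 hepatic markers was 856 and 859 after 1 h, 911 and 914 after 2 h, and 1160 and 1310 in the libraries labelled WT 3 h, against 1690 to 2040 in A5-KO at 1 h and 3 h. AFP, a fetal liver protein, accounted for most of it, at 639 and 644 CPM at 1 h and 878 and 1030 CPM at 3 h. The sum of 9 progenitor markers, 8 of them at 5 CPM or more in WT at 0 h and PTF1A near 0, was 1370 and 1080 before treatment, 367 and 419 after 1 h, 243 and 564 after 2 h, and 449 and 454 after 3 h. The sum of 3 intestinal markers went from 598 and 619 to 689 and 709, of which CDX2 was at 106 and 122 at 1 h and at 111 and 107 at 3 h, and that of 3 mesenchymal markers from 62.4 and 58.4 to 71.2 and 65.6. The pluripotent sum, 117 and 134 at 1 h and 170 and 162 at 3 h, came almost wholly from LIN28A, with POU5F1 and NANOG at or near 0. Endocrine markers summed to at most 6.36 in any WT library, with INS and GCG at or near 0. The hepatic, intestinal, mesenchymal and pluripotent sums were higher in the libraries labelled WT 3 h than at 1 h without overlap, in the direction of A5-KO. The mesenchymal rise was that of COL3A1 (36.4 and 32.5 CPM to 43.6 and 44 CPM). PDGFRB fell from 12.7 and 11.4 CPM to 11 and 10.5 CPM, and COL1A1 overlapped. The progenitor sum was also higher without overlap, but away from A5-KO, which held 133 and 117 at 3 h. The part of these sums in the gene changes above was not tested.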

How the data were processed

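Total RNA of WT and A5-KO PPs with ERCC spike-ins was sequenced in read pairs. Per the labels and the study's methods, the authors trimmed reads with fastp, aligned them with HISAT2 2.1.0 to hg38, and deposited CPM per gene, in which spike-ins are absent. The study's methods name stringtie and TPM. How the deposited CPM were counted, with which annotation and use of strand, is not given in the sources used here. Values within a library were whole multiples of a single read (100.0% within 0.05 reads), which gave 30516384 to 35206513 reads per library. Intervals and floors cover counting error only.

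The 10421 genes that averaged 5 CPM or more in the 4 libraries were tested with limma 3.58.1 in R 4.3.3 on log2(CPM + 1), with a trended empirical Bayes prior and Benjamini-Hochberg adjustment. Folds on this scale understate changes of low genes. The study's count test needs counts, so edgeR 4.0.16 and DESeq2 1.42.0 were run on recovered reads as alternatives. The interaction of genotype and time was fitted over 8 libraries. The fits were tested on simulated data. Other scalings, filters, pseudocounts, call limits, libraries left out, and 2 h libraries in place of 3 h (chosen after seeing the data) were also tried. The members and lists were chosen with earlier results of these data known. Some progenitor factors are not reported here. Named genes were the 15 largest called changes per direction at 20 CPM or more, the progenitor factors, the largest called and 3 most abundant members of each list, and ALKBH5. Annotation came from GENCODE on hg38. Same-numbered libraries did not deviate together (correlations -0.0761 to 0.139).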

Additional observations from a re-analysis of the deposited data

Results flagged for a closer look

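The change from 1 h to 3 h differed between the genotypes (limma interaction, adjusted p under 0.05 and a difference over 1.5-fold) for 48 of 60 genes (those called in WT, the progenitor factors and others described with them), 39 with a lower and 9 with a higher change in A5-KO. Over all tested genes the shares were 19.0% lower and 1.42% higher. Many of the 60 were chosen by the WT change, which is part of this difference, so the count is no separate result about them. Differences are given as A5-KO minus WT on the log2(CPM + 1) scale. None of the 48 changed sign under median-of-ratios scaling or quantile normalization. Because all of them rest on the libraries labelled WT 3 h, which lay between the genotypes on genes that separate them, each difference has the limit stated for those libraries.

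Among the genes that fell in WT, the difference was positive for TNFSF9 (3.68), PCDHGB5 (2.87), SRRM3 (2.8), MYH14 (2.74), CD70 (2.11), ALKBH5 (1.32) and GP2 (1.1). The first 5 of these, all under 1 CPM in A5-KO at both 1 h and 3 h, passed the filter on low values through WT alone. Their values restate the WT change on a scale set by the pseudocount of 1 CPM, are no bound, and say nothing of a change in A5-KO. ALKBH5 is the targeted gene.

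Among the genes that rose in WT, the difference was negative for SLC30A1 (-2.23), SPRY1 (-1.72), CLDN4 (-1.69), PRSS8 (-1.3), CEACAM5 (-1.26), CLDN7 (-1.2), MUC13 (-1.15), CTSE (-1.08), CEACAM6 (-1.07), GPX3 (-0.97), CALB1 (-0.92), LGALS3 (-0.83), ANXA13 (-0.81), SRSF6 (-0.79), GNRH2 (-0.73), TSPAN8 (-0.7) and LCP1 (-0.61). The largest sizes were those of SLC30A1, SPRY1 and CLDN4.

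Among the progenitor transcription factors, the difference was negative for FOXA1 (-2.57), PDX1 (-2.3), HES1 (-2.27), GATA6 (-2.18), SOX9 (-2.16), HHEX (-2.01), NKX6-1 (-1.97), GATA4 (-1.85), FOXA2 (-1.74), TCF7L2 (-1.52), NR5A2 (-1.31), MNX1 (-1.17), ONECUT2 (-0.8) and HNF4A (-0.71). Limma, edgeR and DESeq2 called 0 of these within WT, and in A5-KO PDX1 changed by -2.03 and NKX6-1 by -1.78 from 1 h to 3 h.

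Among the others, none called within WT, the difference was negative for DUSP5 (-3.85), KLF5 (-2.59), FOSL2 (-2.0), AEN (-1.72), JUND (-1.65), MCL1 (-1.61), NCOA7 (-1.36) and SRSF3 (-0.77), and positive for MIR3648-1 (2.84) and LSS (1.24).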

How the results depend on the processing

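Against 18 genes higher and 8 lower in the libraries labelled WT, the counts were 0 and 0 with no filter on low values (199 and 38 at an unadjusted p under 0.05), 10 and 2 at a mean of at least 20 CPM, 25 and 14 at a mean of at least 1 CPM, 7 and 6 after quantile normalization, 32 and 8 with a robust prior, 0 and 0 with the 2 h libraries in the fit, 56 and 10 with 16 libraries in the fit, 142 and 20 at an unadjusted p, 8 and 7 by edgeR and 67 and 16 by DESeq2. With the replicate block they were 68 and 13. The check of same-numbered libraries gave a correlation of -0.019 between 1 h and 3 h, which cannot decide whether they share a batch of cells. The study states that the wells of a biological replicate came from a common batch. The labels do not say whether the library numbers follow these batches. Leaving out 1 library gave 0 to 329 higher and 1 to 55 lower; here the lone library is assumed to vary like the others. With both 2 h libraries in place of 3 h the counts were 0 and 0 (12 and 13 at an unadjusted p), with library 1 alone 20 and 350 (0 and 1 shared with the 18 and the 8), and with library 2 alone 257 and 53 (8 and 6 shared). Without the 303 genes that differ between genotypes at 0 h they were 0 and 0. There the genes kept had the same unadjusted p-values, and only the adjustment differed. The cause of the other differences was not tested. All 26 called genes kept their direction in each of these settings that compared 1 h with 3 h.

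For the A5-KO minus WT change (148 higher, 1980 lower), the counts were 57 and 1286 with no filter, 97 and 938 at a mean of at least 20 CPM, 398 and 1381 with median-of-ratios scaling, 521 and 856 after quantile normalization, 390 and 1445 by edgeR, and 419 and 1523 by DESeq2. With no limit on the fold, 282 were higher. Leaving out 1 library gave 71 to 329 higher and 1391 to 2187 lower, and the replicate block gave 168 and 2002. The cause was not tested.

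Among uncalled factors the WT change turned for GATA4 to -0.02 with median-of-ratios scaling, edgeR and DESeq2 and to -0.01 after quantile normalization, and for TCF7L2 to -0.0 with median-of-ratios scaling. Leaving out 1 library turned the sign of 4 factors, with ranges of -0.07 to 0.24 for NR5A2, -0.07 to 0.52 for PROX1, -0.09 to 0.14 for GATA4 and -0.11 to 0.19 for TCF7L2. With 2 h libraries in place of 3 h, 4 called genes turned, TSPAN8 to -0.02 (library 2), NTS to -0.18 (both), -0.1 (library 1) and -0.26 (library 2), SPRY1 to -0.47 (both) and -1.07 (library 1), and SLC30A1 to -0.31 (library 1). A level of 0 allows up to 3 reads, or 0.0852 to 0.0983 CPM, and each time has only 2 libraries.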
